A study of Mus musculus with 14 samples.

Results

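The 45 genes described here are interferon-stimulated and antigen presentation genes, chosen by symbol from the 24346 genes of the deposited tables, and each was found there. They were followed in polyadenylated RNA of MC3T3-E1, an established mouse cell line of osteoblast precursors that can be differentiated towards bone-forming cells in culture. The series holds 14 libraries: control cells and cells whose genotype is labelled MACF1 knockdown, each sampled 4 times, on days 0, 3, 5 (2 libraries per condition and day) and 10 (1 library per condition). MACF1 is a large protein that links microtubules to actin filaments, and by its title the study asked how it acts on osteoblast differentiation through Wnt signalling. The control and knockdown cells share the line, and no cytokine or other agent is named in the labels. What happened at day 0, how the knockdown was made and from how many clones is not given in the sources used here.

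Type I and type III interferons bind receptors on the cell surface and activate a transcription factor built from STAT and IRF9 subunits, which binds interferon-stimulated response elements (ISREs) in gene promoters. Interferon gamma acts through a STAT dimer that binds gamma-activated sites (GAS). The induced genes include RNA sensors, antiviral effectors and the machinery of class I antigen presentation, in which proteasome fragments are pumped into the endoplasmic reticulum by the TAP transporter and loaded on class I heavy chains paired with B2m. Many of these genes have a low constant level in cells that see no virus. In bone, interferons are known for restraining osteoclast formation.

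The libraries held between 8044687 and 23301514 counts, and the members took 0.126% to 0.262% of them. The library of control day 3 replicate 2 stood apart. It was the shallowest, its log2 CPM correlated with that of its replicate at 0.928 against 0.993 to 0.994 in the other 5 replicate pairs, and it held extreme values of several members, given below. Leaving out either control day 3 library lowered the common dispersion of the fit from 0.0474 to 0.0115, so that this drop marks the pair and not which of its libraries differs. It also had the lowest level of Macf1 itself, 55.2 CPM (counts relative to scaled library size) against 129 to 205 in the other libraries. At days 0, 3 and 5 Macf1 lay between 157 and 181 CPM in the libraries labelled knockdown. Without control day 3 replicate 2 it lay between 154 and 205 CPM in the control, so that the ranges overlapped. By day, the knockdown libraries were at 157 and 163 against 154 and 160 CPM at day 0. At day 3 they were at 172 and 170 against 189 CPM, and at day 5 at 169 and 181 against 176 and 205 CPM. At day 10 Macf1 was at 129 CPM against 196 CPM, and no test of Macf1 is given here. The main counts of members called are given with and without control day 3 replicate 2. So are the averaged differences of members with values printed by library whose call depends on it. Other members whose call depends on it are listed with the averaged comparison. Of 10 osteoblast markers Col1a1, Col1a2, Sparc and Spp1 had at least 4080 counts in each library, while Alpl, Bglap, Ibsp and Dmp1 went down to 3, 0, 27 and 85 counts. These markers differed between the conditions: in the averaged comparison Spp1, Bglap and Dmp1 rose and Runx2, Alpl, Ibsp and Sparc fell, Alpl by 2.66 and Ibsp by 3.57 on the log2 scale. Of 13 leukocyte markers, 10 stayed under 1 CPM in each library, and Ptprc, Adgre1, Laptm5, Cd52 and Cd3e reached at most 2 counts. The summed level of the leukocyte markers was 2.31 to 8.67 CPM in the control libraries and 2.97 to 6.22 CPM in those labelled knockdown. Of the 3 leukocyte markers with enough counts to test none passed with all libraries, and without control day 3 replicate 2 Coro1a passed as higher in the libraries labelled knockdown (adjusted p = 0.0011, at 0.28 to 1.18 CPM against 0 to 0.73 CPM in the 14 libraries). Of 7 endothelial markers 6 stayed under 1 CPM in each library. The other, Pecam1, was at 0 to 0.56 CPM in the control and 0.25 to 2.27 CPM in the knockdown libraries; its averaged difference was 1.49 on the log2 scale (adjusted p = 0.0553) and passed with the replicate block (adjusted p = 0.0356) and without control day 3 replicate 2 (adjusted p = 0.00546). The part of these markers in the results was not tested. Fewer cells that express a gene and less RNA per cell cannot be told apart in such bulk samples.

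To show the element that joins many of these genes, the 250 bases before the start of 6 members are printed 5′ to 3′ on the gene's strand, from the RefSeq promoter table (build GRCm38.p6), with each ISRE match in capitals. The ISRE was searched on both strands as a pair of GAAA runs with any 2 bases between them. The 6 stand for 5 roles: Isg15 (a ubiquitin-like protein, chr4:156200819-156201068, minus strand), Ifit1 and Ifit3 (binders of viral RNA, chr19:34640639-34640888 and chr19:34583279-34583528, plus strand), Gbp2 (a GTPase, chr3:142620413-142620662, plus strand), B2m (the light chain of class I molecules, chr2:122147437-122147686, plus strand) and Cxcl10 (a chemokine, chr5:92348890-92349139, minus strand).
Isg15: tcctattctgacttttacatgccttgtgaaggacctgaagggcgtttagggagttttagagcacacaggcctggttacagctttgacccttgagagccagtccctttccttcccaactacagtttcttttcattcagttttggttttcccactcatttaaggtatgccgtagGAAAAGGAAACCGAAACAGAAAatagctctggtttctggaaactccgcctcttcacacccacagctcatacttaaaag
Ifit1: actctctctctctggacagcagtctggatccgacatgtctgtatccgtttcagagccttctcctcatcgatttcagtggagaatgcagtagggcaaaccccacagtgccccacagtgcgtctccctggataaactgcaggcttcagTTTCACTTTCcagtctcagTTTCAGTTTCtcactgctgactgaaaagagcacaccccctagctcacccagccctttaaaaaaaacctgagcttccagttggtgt
Ifit3: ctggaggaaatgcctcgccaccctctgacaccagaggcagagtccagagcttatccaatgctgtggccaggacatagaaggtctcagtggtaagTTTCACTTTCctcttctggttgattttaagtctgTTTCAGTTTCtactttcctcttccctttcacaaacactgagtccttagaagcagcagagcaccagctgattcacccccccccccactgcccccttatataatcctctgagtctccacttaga
Gbp2: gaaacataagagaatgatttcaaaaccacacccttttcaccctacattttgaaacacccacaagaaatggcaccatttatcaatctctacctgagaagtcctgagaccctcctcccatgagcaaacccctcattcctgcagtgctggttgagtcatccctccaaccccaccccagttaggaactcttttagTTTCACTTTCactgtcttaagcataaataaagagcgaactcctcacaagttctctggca
B2m: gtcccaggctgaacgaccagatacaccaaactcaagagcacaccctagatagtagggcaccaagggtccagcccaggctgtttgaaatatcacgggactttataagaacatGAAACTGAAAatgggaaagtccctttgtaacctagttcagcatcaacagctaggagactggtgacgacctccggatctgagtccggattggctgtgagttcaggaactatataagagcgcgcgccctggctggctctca
Cxcl10: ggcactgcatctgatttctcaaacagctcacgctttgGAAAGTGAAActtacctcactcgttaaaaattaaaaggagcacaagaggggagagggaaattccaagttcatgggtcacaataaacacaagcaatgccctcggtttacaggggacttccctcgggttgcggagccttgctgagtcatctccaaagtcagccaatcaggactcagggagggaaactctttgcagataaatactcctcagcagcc

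The matches began 78, 72 and 66 bases before the start in Isg15, where the 3 matches overlap, and 104 and 85 bases before it in Ifit1. Ifit3 had matches at 156 and 122 bases, Gbp2 at 59, B2m at 139 and Cxcl10 at 213. A promoter window of 250 bases before to 50 after the start was held for 35 of the 45 members, and 15 of the 35 (42.9%) had an ISRE match, against 3.99% of 27025 genes. A GAS match (TTCNNNGAA, either strand) was in 8 of 35 members (22.9%) against 9.55% of all genes. Of the other interferon-induced genes outside the members, 27 of 57 (47.4%) had the ISRE letters. A match describes the sequence and is not evidence of binding in these cells. Among the 15 members with an ISRE match, Oas3 and Rsad2 were too low to test, and Gbp2, Eif2ak2 and Ifit3 were higher and Ifit1 was lower in the libraries labelled knockdown by the test given below, which called 15.0% of all genes higher and 11.9% lower.

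The members differed widely in level. On the authors' RPKM scale, which divides by gene length and so allows genes to be compared, B2m was highest, with a median of 428 RPKM over the 14 libraries, followed by H2-D1 (141), Tapbp (91.1), H2-K1 (34.7) and Psmb8 (30.4). H2-K1 and Psmb8 overlapped in their ranges, 17.6 to 113 RPKM and 16.1 to 66.1 RPKM. In all, 32 members had a median of at least 1 RPKM and 13 had a lower one. The antiviral effectors Mx1 (0.46), Oas1a (0.405), Cmpk2 (0.27) and Oas2 (0.085) were among the lowest. Oas3, Oasl1 and Rsad2 were too low to test (fewer than 10 counts in all but at most 1 library), which left 42 members in the tests. Rsad2, an antiviral enzyme, and its neighbour Cmpk2 lie head to head on chromosome 12 with starts 12752 bases apart, and Rsad2 had 1 count in each condition over days 0, 3 and 5.

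**Figure D1:**
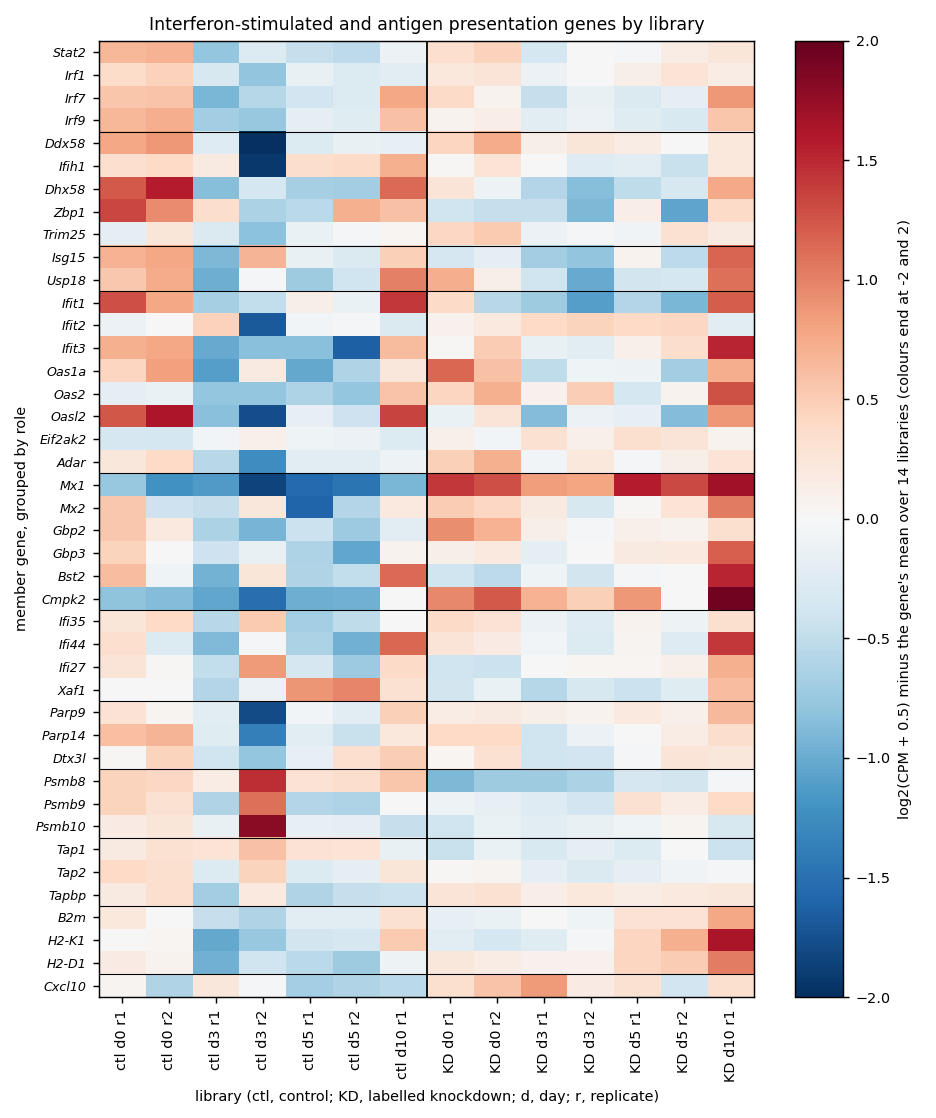
Heat map of the 42 tested members (rows, grouped by role) in the 14 libraries (columns); colour is log2(CPM + 0.5) minus the gene's mean over the libraries. Stat2, Irf9, Dhx58 and Ifit3 are higher in the control at day 0 than at days 3 and 5, Mx1 and Cmpk2 are higher in each library labelled knockdown than in each control library, and the control day 3 replicate 2 column departs from its replicate, with high Psmb8, Psmb9 and Psmb10 and low Ddx58, Ifih1 and Parp9.

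In the average over the 3 replicated days, 9 members were higher and 4 lower in the libraries labelled knockdown. Those that rose were the effectors Ifit3, Oas2, Eif2ak2, Adar, Mx1, Gbp2 and Cmpk2 and the class I heavy chains H2-K1 and H2-D1. Those that fell were Ifit1, the cell death factor Xaf1, the immunoproteasome subunit Psmb8 and the peptide transporter subunit Tap1. The other 29 did not pass. The counts correspond to 21.4% and 9.52% of the 42 tested members, beside 15.0% of all 13130 tested genes called higher and 11.9% called lower. These gaps amount to few members, and whether the shares differ from the background was not tested. The median log2 difference of the members was 0.22, against -0.003 for all genes (edgeR quasi-likelihood test, Benjamini-Hochberg adjusted p under 0.05). In 6 members both knockdown libraries lay above both control libraries at each of the 3 days, and in 3 they lay below. Those 14.3% and 7.14% of members stand beside 13.7% and 9.55% of all genes, near the background. Without control day 3 replicate 2, 20 were higher and 6 lower (47.6% and 14.3%), beside 24.9% and 22.2% of all genes. No call was lost, and those gained were Stat2, Trim25, Ifit2, Oas1a, Gbp3, Ifi35, Ifi44, Parp9, Tapbp, B2m and Cxcl10 as higher and Ifih1 and Zbp1 as lower. Usp18, Bst2, Ifi27, Dtx3l and Psmb9 changed sign and passed in neither fit.

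**Figure D2:**
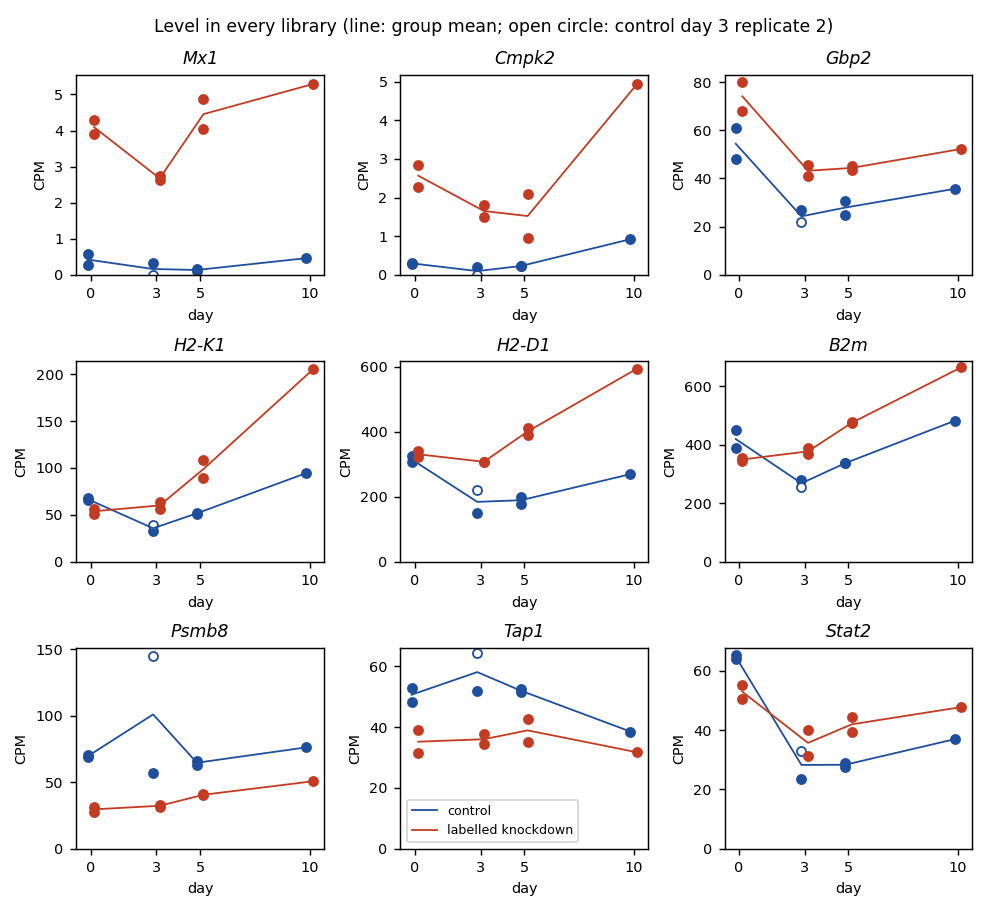
Scaled CPM (vertical axis, from 0) by day (horizontal axis) for 9 members, with a point for each library, lines through the group means, and the control day 3 replicate 2 library as an open circle. Mx1, Cmpk2 and Gbp2 are higher in the libraries labelled knockdown at each day, Psmb8 and Tap1 are lower, and H2-K1, H2-D1, B2m and Stat2 start alike or higher in the control and end higher in the knockdown.

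The signalling factors carry the interferon signal into the nucleus. Stat2 and Irf9 form the ISRE-binding complex, Irf7 amplifies the production of type I interferon and Irf1 drives genes of the interferon gamma response. None of the 4 passed in the averaged comparison. In the control libraries Stat2 was at 63.96 and 65.5 (day 0), 23.4 and 33.1 (day 3), 28.9 and 27.6 (day 5) and 36.9 (day 10) CPM. The libraries labelled knockdown had 50.6 and 55.2, 31.2 and 40.2, 39.4 and 44.5 and 47.8 CPM at the same days. The control was higher at day 0 and the knockdown at days 5 and 10, and the averaged difference was 0.21 ± 0.12 (log2, with SE; adjusted p = 0.22). It passed without control day 3 replicate 2 (0.29 ± 0.08, SE; adjusted p = 0.0106).

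Irf9 had 24.1 and 25.2 (day 0), 9.06 and 8.67 (day 3), 13.2 and 12.5 (day 5) and 22.8 (day 10) CPM in the control and 15.7 and 16.6, 12.9 and 13.7, 12.6 and 12.02 and 22.3 CPM in the knockdown libraries of those days. Its groups crossed, with the control above the knockdown at day 0 and below it at day 3, and the averaged difference was -0.03 ± 0.10 (log2, with SE; adjusted p = 0.834). With the replicate number as a block the day 0 difference of Irf9 (-0.61, adjusted p = 0.0347) and the day 3 difference (0.58, adjusted p = 0.0407) passed the threshold, where without it they did not (adjusted p = 0.0513 and 0.0521). Without the day 3 libraries the averaged difference of Irf9 was -0.34 and passed (adjusted p = 0.011). Irf1 was at 49.2 and 52.4 (day 0), 30.3 and 21.6 (day 3), 34.1 and 31.2 (day 5) and 32.5 (day 10) CPM in the control. Its levels in the knockdown libraries were 43.9 and 45.5, 34.9 and 38.1, 41.05 and 46.1 and 41.95 CPM. The ranges of the 2 conditions overlapped over days 0, 3 and 5, and the averaged difference was 0.24 ± 0.11 (log2, with SE; adjusted p = 0.128), which passed without control day 3 replicate 1 (0.33, adjusted p = 0.00175). Irf7 was scarce, at 4.11 and 4.17 (day 0), 1.16 and 1.62 (day 3), 1.90 and 2.10 (day 5) and 4.87 (day 10) CPM in the control and 3.58 and 2.78, 1.77 and 2.33, 2.06 and 2.28 and 5.23 CPM in the knockdown, with an averaged difference of 0.12 ± 0.17 (log2, with SE; adjusted p = 0.658).

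The sensors recognise viral nucleic acid. Ddx58 (RIG-I) and Ifih1 (MDA5) bind double-stranded RNA, Dhx58 (LGP2) modulates both, Trim25 activates RIG-I and Zbp1 senses left-handed nucleic acid. None of the 5 passed in the averaged comparison. Ddx58 was at 74.9 and 79.9 (day 0), 36.6 and 6.32 (day 3), 36.2 and 39.3 (day 5) and 39.01 (day 10) CPM in the control and at 59.2 and 73.5, 47.5 and 51.7, 48.5 and 44.05 and 50.7 CPM in the knockdown libraries. The control day 3 value of 6.32 CPM came from the library that stood apart and lay far below all others. The averaged difference was 0.41 ± 0.30 (log2, with SE; adjusted p = 0.344), and 0.17 without that library (adjusted p = 0.0826). It passed without replicate 1 of that day (adjusted p = 2.47e-06), which leaves the low library alone in its group, and with no filter on low counts (adjusted p = 0.0347). Dhx58 was the one member lower at day 0, with 7.65 and 9.80 CPM in the control against 3.64 and 2.71 CPM, a difference of -1.45 ± 0.29 (log2, with SE; adjusted p = 0.013). The averaged log2 differences of Ifih1, Trim25 and Zbp1 were -0.21, 0.37 and -1.38.

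Isg15 is a ubiquitin-like protein that is attached to other proteins after interferon treatment, and Usp18 is the protease that removes it. Neither passed. Isg15 was at 8.85 and 9.32 (day 0), 2.57 and 8.67 (day 3), 4.69 and 4.21 (day 5) and 7.48 (day 10) CPM in the control libraries. In the knockdown libraries it was at 4.07 and 4.59, 3.03 and 2.83, 5.55 and 3.49 and 12.3 CPM. At day 0 both control values lay above both knockdown values, and at day 3 the control replicates differed more from each other than from the knockdown. The averaged difference of Isg15 was -0.63 ± 0.26 (log2, with SE; adjusted p = 0.104). It was -0.28 without control day 3 replicate 2 (adjusted p = 0.158), and it passed without replicate 1 (-0.86, adjusted p = 3.78e-04), without day 3 (-0.51, adjusted p = 0.031) and with no filter on low counts (-0.59, adjusted p = 0.0153). Usp18 stayed between 0.49 and 3.78 CPM in the 14 libraries.

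Among the RNA-binding effectors, 4 of 8 tested members rose and 1 fell (50% and 12.5%, beside 15.0% and 11.9% of all genes). Ifit1 and Ifit3, neighbours on chromosome 19 with starts 57340 bases apart, moved in opposite directions. Ifit1, which binds the unmethylated cap of viral RNA, had 23.9 and 16.8 (day 0), 5.85 and 6.61 (day 3), 10.4 and 8.65 (day 5) and 26.2 (day 10) CPM in the control. The knockdown libraries had 12.5 and 6.33, 5.61 and 4.17, 6.22 and 4.83 and 22.7 CPM. Within each of days 0, 3 and 5 both knockdown values lay below both control values, and the averaged difference was -0.74 ± 0.20 (log2, with SE; adjusted p = 0.0199).

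With the replicate block Ifit1 also passed at day 0 (-1.13, adjusted p = 0.0274, against 0.0791 without it), where the number of members lower went from 1 to 3. Ifit3 had 13.9 and 14.5 (day 0), 3.86 and 4.41 (day 3), 4.41 and 2.34 (day 5) and 13.1 (day 10) CPM in the control. In the knockdown libraries it was at 8.42 and 11.96, 7.43 and 7.07, 8.92 and 10.7 and 24.6 CPM. The control was higher at day 0 and the knockdown higher at days 3, 5 and 10, and the averaged difference was 0.62 ± 0.17 (log2, with SE; adjusted p = 0.0237). Ifit3 shares nearly identical sequence with Ifit3b, so the split of reads between these copies is uncertain. Both calls lost significance when other single libraries were left out. For Ifit1 these were control day 0 replicate 1, control day 5 replicate 1, knockdown day 3 replicate 2 and knockdown day 5 replicate 2 (adjusted p 0.053 to 0.0638). For Ifit3 they were either control day 0 library, control day 5 replicate 2, knockdown day 0 replicate 2, either knockdown day 3 library or knockdown day 5 replicate 2 (adjusted p 0.0537 to 0.0745).

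Eif2ak2 encodes PKR, the kinase that halts translation on binding double-stranded RNA. It had 98.7 and 97.6 (day 0), 119.8 and 134 (day 3), 117 and 115 (day 5) and 103 (day 10) CPM in the control and 133 and 119.6, 154 and 134, 156 and 148 and 131 CPM in the knockdown libraries. The knockdown values lay above the control values of the same day, at day 3 by no more than 133.8 against 133.7 CPM for the nearest libraries, and the averaged difference was small, 0.31 ± 0.09 (log2, with SE; adjusted p = 0.0296). Adar, which edits adenosine to inosine in double-stranded RNA, was at 31.7 and 35.7 (day 0), 18.1 and 11.2 (day 3), 23.3 and 22.98 (day 5) and 25.1 (day 10) CPM in the control. Its knockdown values were 37.8 and 44.5, 25.9 and 31.2, 26.4 and 29.4 and 32.8 CPM. The averaged difference of Adar was 0.50 ± 0.13 (log2, with SE; adjusted p = 0.0193) and the day 3 difference, 0.94 ± 0.23 (log2, with SE; adjusted p = 0.0309), was measured against a control whose replicate 2 was the lowest of the 14 libraries. Without that library they were 0.40 (adjusted p = 0.00218) and 0.65 (adjusted p = 0.0191). Adar shares 1365 exonic bases with Chrnb2 on the opposite strand. Eif2ak2 lost its call when 9 of the 12 libraries of days 0, 3 and 5 were left out in turn, that is any except the control day 3 libraries and knockdown day 3 replicate 2 (adjusted p 0.0568 to 0.0946), and with no filter on low counts (adjusted p = 0.114). Adar lost it without control day 0 replicate 1, either control day 5 library, or replicate 2 of the knockdown at day 0, 3 or 5 (adjusted p 0.0555 to 0.067).

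The oligoadenylate synthetases make the messenger that activates RNase L. Oas1a was at 1.33 and 1.88 (day 0), 0.129 and 1.03 (day 3), 0.168 and 0.390 (day 5) and 1.08 (day 10) CPM in the control and 2.50 and 1.53, 0.455 and 0.778, 0.757 and 0.336 and 1.74 CPM in the knockdown libraries. These values overlapped and are at most 2.50 CPM, and the averaged difference was 0.59 ± 0.47 (log2, with SE; adjusted p = 0.376). Oas1a passed as higher (1.20, adjusted p = 0.0444) when control day 3 replicate 2 was left out. Reads of Oas1a can be shared with near-identical copies such as Oas1g. Oas2 had 53 counts in the 6 knockdown libraries of days 0, 3 and 5 and 9 in the 6 control libraries, a ratio of 4.66 (95% exact interval 2.28 to 10.7, counting error only). Both control day 3 libraries were at 0. Against a floor of 3 counts over the control group, the 18 knockdown counts of day 3 gave a ratio of 3.95, which is not a lower bound. The lower 95% limit of the exact interval was a ratio of 2.9. Its test passed (adjusted p = 0.00517), and the fitted difference depends on the prior count. Ifit2 and Oasl2 did not pass, with averaged log2 differences of 0.43 and -0.28.

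Of the GTPases and membrane effectors, counted with the nucleotide kinase Cmpk2, 3 of 6 tested members rose (50%, beside 15.0% of all genes) and none fell (beside 11.9%). Mx1, which encodes a GTPase of the Mx family, had the largest averaged difference of the 42 tested members. Its levels in the control were 0.569 and 0.278 (day 0), 0.321 and 0 (day 3), 0.112 and 0.156 (day 5) and 0.461 (day 10) CPM. The knockdown libraries had 4.29 and 3.90, 2.73 and 2.62, 4.88 and 4.03 and 5.29 CPM. Each knockdown library lay above each control library. Over days 0, 3 and 5 Mx1 had 402 counts against 22, a ratio of 14.4 (95% exact interval 9.41 to 23.3, counting error only), and the averaged difference was 3.95 ± 0.33 (log2, with SE; adjusted p = 2.31e-05). By day the ratio was 9.56 (5.41 to 18.4), 12 (4.96 to 37.8) and 35 (13.4 to 130). Mx2, whose start lies 72401 bases from that of Mx1 on the opposite strand, stayed between 0.06 and 2.96 CPM and did not pass (0.90 on the log2 scale, adjusted p = 0.149).

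Cmpk2, a mitochondrial nucleotide kinase, was at 0.316 and 0.278 (day 0), 0.193 and 0 (day 3), 0.223 and 0.234 (day 5) and 0.923 (day 10) CPM in the control. In the knockdown libraries it was at 2.28 and 2.85, 1.82 and 1.49, 2.10 and 0.940 and 4.94 CPM. The highest control value of days 0, 3 and 5 lay below the lowest knockdown value of those days. Its 204 counts against 19 gave a ratio of 8.49 (5.3 to 14.4), and the averaged difference was 3.13 ± 0.37 (log2, with SE; adjusted p = 2.43e-04). Gbp2, a GTPase that attacks the vacuoles of intracellular pathogens, was at 60.9 and 47.9 (day 0), 26.8 and 21.7 (day 3), 30.8 and 25.01 (day 5) and 35.7 (day 10) CPM in the control. Its knockdown values were 80.2 and 67.96, 45.5 and 40.9, 45.1 and 43.6 and 52.2 CPM. At each day the knockdown lay above the control, and the averaged difference was 0.65 ± 0.11 (log2, with SE; adjusted p = 0.00259). With the replicate block the day 5 difference of Gbp2 passed as well (0.68, adjusted p = 0.0185, against 0.0712 without it). Gbp genes resemble each other closely and reads can be shared between them. Gbp3 and Bst2 (tetherin, which holds budding virus at the membrane) had averaged log2 differences of 0.39 and -0.06 and did not pass.

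Of the 4 other interferon-induced genes, Xaf1, which opposes the inhibitor of apoptosis XIAP, fell, where 11.9% of all genes were called lower. It had 22.1 and 21.8 (day 0), 14.5 and 20.3 (day 3), 41.3 and 43.8 (day 5) and 27.4 (day 10) CPM in the control and 16.9 and 20.03, 14.7 and 17.6, 16.2 and 18.5 and 33.99 CPM in the knockdown libraries. At day 5 the control was 2.45-fold above the knockdown, and the averaged difference of -0.55 ± 0.12 (log2, with SE; adjusted p = 0.00781) came with -1.29 (adjusted p = 0.00387) at day 5. The day 0 and day 3 differences were -0.25 and -0.10 and did not pass. Ifi35, Ifi44 and Ifi27 did not pass, with averaged log2 differences of 0.12, 0.40 and -0.09. Parp9, Parp14 and Dtx3l, which act in ADP-ribosylation and ubiquitin signalling, did not pass either (0.38, 0.19 and 0.04). Parp9 and Dtx3l overlap by 458 exonic bases on opposite strands.

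The immunoproteasome subunits Psmb8, Psmb9 and Psmb10 replace the constitutive catalytic subunits and favour peptides that fit class I molecules. Of them 1 of 3 fell, where 11.9% of all genes were called lower. Psmb8 had 70.2 and 68.7 (day 0), 57.1 and 145 (day 3), 63.1 and 66.1 (day 5) and 76.2 (day 10) CPM in the control. In the knockdown libraries it had 27.5 and 31.5, 31.3 and 33.1, 41.01 and 40.02 and 50.7 CPM. All 6 knockdown libraries of days 0, 3 and 5 lay below all 6 control libraries, and the difference was -1.18 ± 0.20 (log2, with SE; adjusted p = 0.00181). Without control day 3 replicate 2, where Psmb8 was highest, it was -0.91 (adjusted p = 3.11e-07). On the RPKM scale Psmb8 stood to Psmb5, the constitutive subunit it replaces, at 1.05 to 1.54 in the control libraries and 0.490 to 0.991 in the knockdown libraries. At day 5 the corresponding ratios of the other subunits went the other way. Psmb9 to Psmb6 was 0.0306 and 0.0377 in the control against 0.0626 and 0.0647 in the knockdown libraries. Psmb10 to Psmb7 was 0.107 and 0.101 against 0.143 and 0.144, with Psmb7 itself lower in the knockdown, as given below. At day 0 Psmb9 to Psmb6 was lower in the knockdown, 0.0403 and 0.0536 against 0.061 and 0.0731 in the control. Psmb10 to Psmb7 overlapped there (0.125 and 0.119 in the control, 0.114 and 0.129 in the knockdown), and at day 3 both ratios overlapped. Psmb9 was at 10.3 and 9.32 (day 0), 4.69 and 16.5 (day 3), 4.80 and 4.67 (day 5) and 7.38 (day 10) CPM in the control and 6.90 and 6.54, 6.12 and 5.58, 9.25 and 8.33 and 9.99 CPM in the knockdown. Its averaged difference, -0.15 ± 0.25 (log2, with SE; adjusted p = 0.696), changed sign to 0.22 (adjusted p = 0.118) without control day 3 replicate 2 and passed as lower without replicate 1 (-0.38, adjusted p = 0.00824). Psmb10 had 46.4 CPM in that library against 9.23 to 15.4 CPM in the other 13, and its averaged difference was -0.55 (adjusted p = 0.166), or -0.13 without it (adjusted p = 0.296). Psmb9 and Tap1 lie on opposite strands of chromosome 17 with starts 211 bases apart and share 212 exonic bases.

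In peptide loading 1 of 3 members fell, where 11.9% of all genes were called lower. Tap1, a subunit of the peptide transporter, was at 48.4 and 52.99 (day 0), 51.9 and 64.3 (day 3), 52.4 and 51.6 (day 5) and 38.5 (day 10) CPM in the control libraries. The knockdown libraries had 31.3 and 39.1, 34.4 and 37.6, 35.2 and 42.6 and 31.7 CPM. All knockdown values of days 0, 3 and 5 lay below all control values of those days, and the averaged difference was -0.54 ± 0.11 (log2, with SE; adjusted p = 0.00489). Tap2, the partner subunit, and Tapbp, which tethers class I molecules to the transporter, did not pass (-0.19 with adjusted p = 0.299, and 0.36 with adjusted p = 0.0962). Control levels of Tapbp were 285 and 318 CPM (day 0) and 166 and 184 CPM (day 5), and it stayed between 275 and 310.1 CPM in the 7 knockdown libraries. Its averaged difference without control day 3 replicate 2 was 0.53 (adjusted p = 2.36e-05).

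Of the 3 class I molecules, both heavy chains rose in the averaged comparison and B2m did not pass, where 15.0% of all genes rose. H2-K1, a heavy chain, was at 65.6 and 67.9 (day 0), 32.3 and 38.9 (day 3), 51.1 and 52.04 (day 5) and 94.6 (day 10) CPM in the control. Its knockdown values were 56.2 and 51.4, 55.96 and 64.1, 88.96 and 109 and 205 CPM. The control was higher at day 0, and the knockdown was higher at days 3, 5 and 10. The averaged difference was 0.46 ± 0.10 (log2, with SE; adjusted p = 0.00876), with -0.31 (adjusted p = 0.387), 0.76 (adjusted p = 0.0271) and 0.94 (adjusted p = 0.00996) on days 0, 3 and 5. H2-D1, the other classical heavy chain, had 324 and 306 (day 0), 149 and 219.5 (day 3), 201 and 178 (day 5) and 269.6 (day 10) CPM in the control and 339.7 and 322, 308 and 307, 390.5 and 412 and 595 CPM in the knockdown. Its groups overlapped at day 0 and were apart at days 3 and 5, and the averaged difference was 0.63 ± 0.12 (log2, with SE; adjusted p = 0.00311). The heavy chains share sequence with each other and with the neighbouring Q genes, so their exact split is uncertain.

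B2m, the light chain that all class I molecules need, was at 450.2 and 388 (day 0), 280.5 and 255 (day 3), 337 and 336 (day 5) and 481 (day 10) CPM in the control. In the knockdown libraries it was at 346 and 353, 387 and 366, 477 and 472 and 664 CPM. The conditions crossed in the same order as for H2-K1, and the averaged difference was 0.24 ± 0.09 (log2, with SE; adjusted p = 0.0825). With the replicate block B2m passed (0.24, adjusted p = 0.044), as it did at day 3 (0.49, adjusted p = 0.0441, against 0.0729 without it). It also passed without control day 3 replicate 1 (0.26, adjusted p = 0.00269) or replicate 2 (0.22, adjusted p = 0.0104). Cxcl10, the chemokine of the set, attracts T cells and was scarce, at 1.26 and 0.626 (day 0), 1.48 and 1.18 (day 3), 0.558 and 0.623 (day 5) and 0.666 (day 10) CPM in the control and 1.63 and 2.02, 2.58 and 1.41, 1.60 and 0.806 and 1.63 CPM in the knockdown. Its averaged difference was 0.85 ± 0.30 (log2, with SE; adjusted p = 0.0592), and with the replicate block it passed (0.86, adjusted p = 0.0388), as it did without control day 3 replicate 1 (0.93, adjusted p = 0.0346) or replicate 2 (0.81, adjusted p = 0.0493). Its pooled counts were 180 against 78, a ratio of 1.82 (1.39 to 2.41, counting error only).

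By day, with all libraries, the median difference of the members was negative at day 0 and positive at days 3 and 5. More members were called higher than lower at each of these days, as were more of all genes. At day 0 both shares of members were near those of all genes. At day 0, 2 members were higher (Mx1 and Cmpk2, 4.76%, beside 4.41% of all genes) and 1 lower (Dhx58, 2.38%, beside 2.68%), and the median difference was -0.22 against 0.03 for all genes. At day 3, 7 were higher (16.7%, beside 7.06%) and 2 lower (4.76%, beside 5.52%), with a median of 0.35 against 0.01. At day 5, 6 were higher (14.3%, beside 5.32%) and 1 lower (2.38%, beside 2.47%), with a median of 0.42 against 0.01. Mx1 and Cmpk2 passed at each of the 3 days, H2-K1 and H2-D1 at days 3 and 5, and Ifit3 and Gbp3 at day 5. The counts without control day 3 replicate 2 were 4 higher and 13 lower at day 0 (all genes 15.8% and 12.9%), 11 and 2 at day 3 (11.9% and 9.18%), and 18 and 4 at day 5 (16.6% and 14.9%). Leaving out control day 3 replicate 1 in its place also gave 4 and 13 at day 0 and 18 and 4 at day 5, and lowered the common dispersion to 0.0115 as well. When a library of another group was left out, 0 to 2 members were higher at day 0, 1 to 4 at day 3 and 1 to 6 at day 5.

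Whether the difference between conditions varied with the day was tested jointly over days 0, 3 and 5. No member passed in edgeR, where 0.998% of all genes did. In that test 11 members had an unadjusted p under 0.05, DESeq2 called 5 and limma on log2 RPKM called 0. Shares of all genes were not counted beside these last counts. The lowest adjusted p among the members was that of H2-K1 (0.0831). The difference at day 5 lay above the difference at day 0 in 37 of 42 members, a share that was not counted over all genes. The median change of the members was 0.60 on the log2 scale against -0.02 for all genes. The contrast of day 5 with day 0 alone, added after the data were seen, called 2 members (4.76%, beside 1.36% of all genes), H2-K1 at 1.25 ± 0.25 (SE; adjusted p = 0.0427) and Ifit3 at 2.00 ± 0.41 (SE; adjusted p = 0.0493). Without control day 3 replicate 2 the joint test called 12 members (28.6%, beside 8.62% of all genes), and without control day 3 replicate 1, where the day 3 control rests on the library that stood apart, it called 26 (61.9%, beside 49.7%).

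Within the control, 7 of the 42 tested members fell from day 0 to day 5, 1 rose and 34 did not pass. The shares were 16.7% lower and 2.38% higher, beside 3.82% of all genes lower and 4.32% higher. The estimate was negative for 38 of 42 members (90.5%), against 49.9% of all genes, and the median change was -0.93 against 0. Those that fell were both parts of the ISRE-binding complex, Stat2 (-1.19 ± 0.20, SE; adjusted p = 0.00578) and Irf9 (-0.94 ± 0.17, SE; adjusted p = 0.00681), with Dhx58 (-2.39), Ifit3 (-2.05), Oasl2 (-1.86), Gbp3 (-1.12) and Gbp2 (-0.96). Xaf1 rose by 0.95 ± 0.20 (SE; adjusted p = 0.0186). With the replicate block Irf7, Ifit1 and H2-D1 also passed (adjusted p = 0.0447, 0.0289 and 0.0466), which made 10. Without control day 3 replicate 2, 27 fell and 1 rose (64.3% and 2.38%, beside 14.5% and 17% of all genes), among them B2m, H2-K1, H2-D1, Tapbp, Tap2 and Psmb9 of the class I route. When 1 library outside control day 3 was left out, 2 to 7 fell, the lowest count without control day 5 replicate 1.

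**Figure D3:**
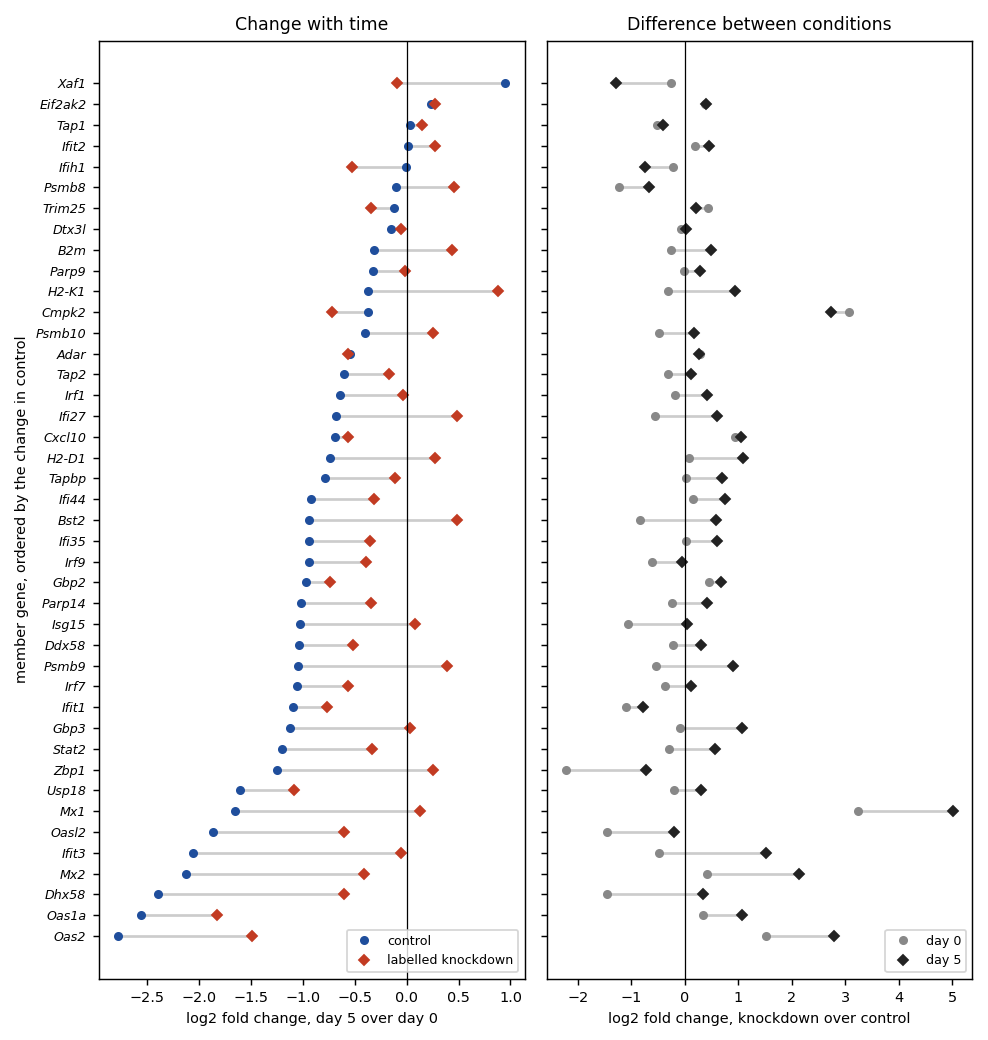
Log2 fold change of the 42 tested members (rows, ordered by the change in control): on the left day 5 over day 0 in the control (circles) and the knockdown (diamonds), on the right knockdown over control at day 0 (circles) and day 5 (diamonds). On the left 38 control circles lie below 0 and the median of the knockdown diamonds is -0.14. On the right the diamond lies to the right of the circle for 37 members, a count not made over all genes.

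In the libraries labelled knockdown, 1 member rose from day 0 to day 5 and 0 fell in edgeR, beside 1.45% of all genes higher and 0.548% lower. At an unadjusted p under 0.05, 2 were higher and 5 lower, and DESeq2 called 2 higher and 1 lower, with no share of all genes counted beside them. The member that rose was H2-K1, with a log2 change of 0.88 ± 0.18 (SE; adjusted p = 0.0372). The median change of the members was -0.14, and the estimate was negative for 27 of 42 (64.3%). Stat2 (-0.34), Irf9 (-0.39), Ifit3 (-0.06) and Gbp3 (0.03), which fell in the control, did not pass here. With the replicate block Gbp2 passed (-0.73, adjusted p = 0.0318). Without control day 3 replicate 2, 4 members were higher (Ifi27, Psmb8, B2m and H2-K1) and 4 lower (Ddx58, Oas1a, Adar and Gbp2), beside 8.01% and 7.56% of all genes. This change with time and the differences between conditions at days 0 and 5 use the same libraries and are not independent of each other.

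**Figure D4:**
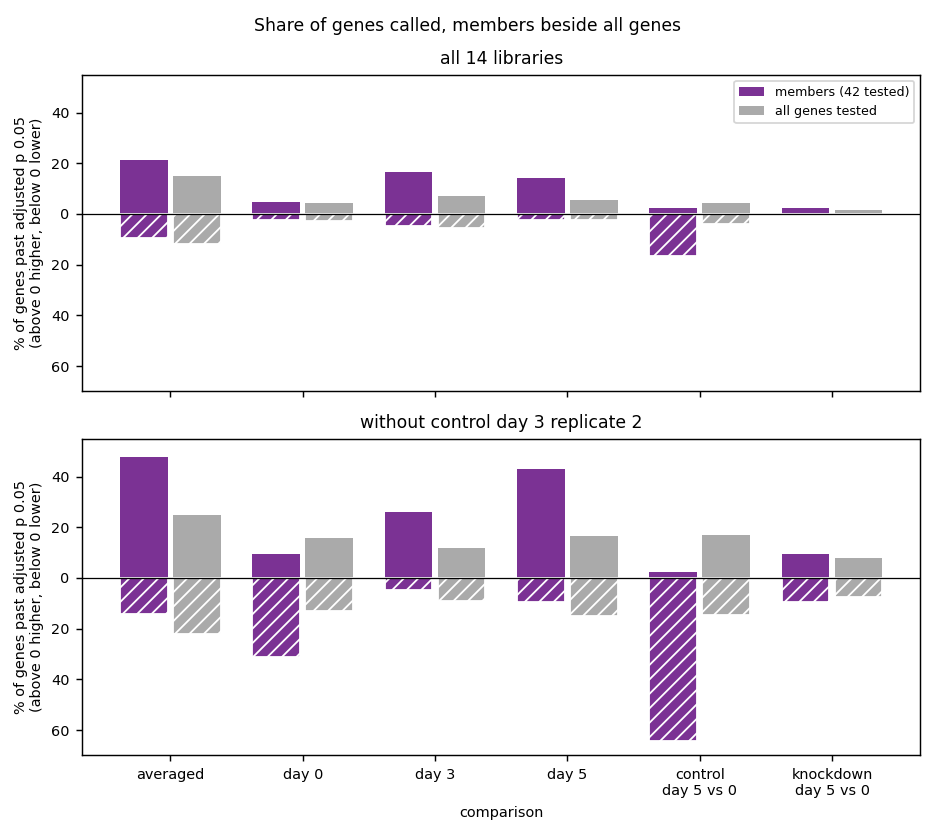
Percent of members (purple) and of all tested genes (grey) past an adjusted p of 0.05 in 6 comparisons, higher above 0 and lower (hatched) below 0, with all 14 libraries (top) and without control day 3 replicate 2 (bottom). The share of members lower in the control at day 5 than at day 0 is 16.7% beside 3.82% of all genes in the top panel and 64.3% beside 14.5% in the bottom panel.

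At day 10 there was 1 library per condition and no test was made. Against the 2 day 5 libraries of its own condition, the control day 10 library was higher for 34 of 42 members (81%, beside 40.8% of all genes) and the knockdown library for 35 (83.3%, beside 39.3%). Between the conditions, 6 members were at least 2-fold higher in the knockdown library (14.3%, beside 8.05% of all genes) and none was at least 2-fold lower (beside 4.32%). They were Mx1, Cmpk2, Gbp3, H2-K1, H2-D1 and Cxcl10, on the log2 scale with a prior count of 2. H2-K1 stood at 205 against 94.6 CPM, H2-D1 at 595 against 269.6 CPM and Gbp3 at 20.7 against 9.23 CPM. Psmb8 and Tap1 were lower in the knockdown library, as at the earlier days, with ratios of 0.665 and 0.823. These differences have no replicate check.

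Other genes of the same pathways were read from lists that do not overlap with the members. Of 60 tested interferon-induced genes outside the members, 13 rose and 4 fell (21.7% and 6.67%, beside 15.0% and 11.9% of all genes), with a median of 0.19. Trim30d and Trim30a, members of a mouse TRIM family, rose by 1.82 ± 0.15 and 1.04 ± 0.22 (SE), Ifi27l2a by 1.58 ± 0.30 and Apol9a by 1.33 ± 0.20. Trim30d was at 4.56 to 17.1 CPM in the 7 control libraries and 22.7 to 44.2 CPM in the 7 knockdown libraries, with no overlap. In the control 15 of the 60 fell from day 0 to day 5 (25%, beside 3.82% of all genes) and 1 rose (1.67%, beside 4.32%). The joint test called 2 of the 60, Igtp (adjusted p = 0.0386) and Lgals3bp (adjusted p = 0.0485), or 3.33% beside 0.998% of all genes, and with the replicate block it called 1. Without control day 3 replicate 2, 21 rose and 8 fell in the averaged comparison (35% and 13.3%, beside 24.9% and 22.2% of all genes).

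Of 21 genes of nucleic acid sensing, 3 rose and 2 fell (14.3% and 9.52%, near the 15.0% and 11.9% of all genes). Ifi204, a sensor of DNA, fell by 2.69 ± 0.23 (SE), from 8.38 to 82.9 CPM in the control libraries to 2.08 to 7.15 CPM in those labelled knockdown. Rnaseh2b fell by 0.75 ± 0.16, and Tlr3 (0.94 ± 0.30) and Irf5 (0.69 ± 0.12) rose. The other that rose, Mavs (0.54, adjusted p = 0.0452), did not pass with the replicate block (adjusted p = 0.0593). Of 8 tested receptors and kinases Ifngr2, a chain of the interferon gamma receptor, rose by 0.33 ± 0.09, where 15.0% of all genes rose. Of 10 inhibitors 1 passed as higher (beside 15.0% of all genes), the phosphatase gene Ptpn6 (2.06 ± 0.20, SE). It was at 0.73 to 2.02 CPM in the control and 4.55 to 8.83 CPM in the knockdown libraries. Ptpn6 was chosen for mention after its values were seen. Of the interferon genes themselves Ifne, Ifnz and Ifnl3 were in the table, with at most 2 counts in a library. Of 17 other class I genes 2 rose and 3 fell (11.8% and 17.6%, beside 15.0% and 11.9% of all genes). Sec61a1, H2-M3 and Pdia3 fell by 0.63, 0.54 and 0.49, and Nlrc5, the transactivator of class I genes, rose by 1.63, with Cd1d1 at 1.02, these last chosen after their values were seen. Of the 3 constitutive proteasome subunits Psmb7 fell by 0.61. The class II genes had 4 of 12 tested and none passed. When control day 3 replicate 2 was left out, 3 of the 4 rose (75%, beside 24.9% of all genes), H2-DMa by 1.51, H2-DMb1 by 0.44 and Ifi30 by 0.37.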

How the data were processed

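RNA of 14 MC3T3-E1 libraries was measured as directional polyA RNA-seq, per the labels' protocols. The authors deposited read counts per gene and, separately, RPKM values per gene; the submitters' processing notes name bcl2fastq, TopHat2, edgeR and GRCm38 without version or role, and how reads were counted is not given in the sources used here. Groups came from the titles (condition and day); the design text calls the pairs biological replicates, but nothing says they were separate cultures, so the p-values reflect only how these libraries spread, which may be technical.

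Counts of 8044687 to 23301514 per library were fitted by the robust quasi-likelihood test of edgeR 4.0.16 under R 4.3.3 (TMM scaling, 8 group means, 6 residual degrees of freedom) for the 13130 genes that reached 10 counts in 2 or more libraries, and p-values were adjusted over these genes (Benjamini-Hochberg, threshold 0.05). CPM printed are TMM-scaled; SE is the log2 fold change over the square root of F. Intervals of pooled counts are 95% Clopper-Pearson intervals and cover counting error only. A floor of 3 counts stood in for a control group without counts in the ratio given for Oas2. DESeq2 1.42.0, limma 3.58.1 on log2(RPKM + 1) and log2(RPKM + 0.1), other filters and scalings, left-out libraries and a replicate block were alternatives. The fit was tested on simulated data.

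Values in each library are given for 15 members set by name, and for members past the threshold in the averaged difference or the joint test with a mean of at least 1 CPM; from other pathway lists up to 4 genes past the threshold with a mean of at least 5 CPM are named, by size. The members and lists were chosen with earlier results of these data known. Same-numbered libraries deviated together, within a day and between days. The correlations of the 2 conditions were 0.392, 0.163 and 0.389 at days 0, 3 and 5. Groups of different days gave 0.328 to 0.462, or 0.0221 to 0.117 in pairs with control day 3. Replicate 1 held more counts than replicate 2 in each pair. The main fit has no term for the replicate number, so blocked values are printed where a call changed. The number itself is the only source of the pairing. Positions and overlaps are from GENCODE on GRCm38, promoters from RefSeq on GRCm38.p6.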

Additional observations from a re-analysis of the deposited data

Results flagged for a closer look

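Without the library of control day 3 replicate 2, the difference between the conditions varied between days 0, 3 and 5 for 12 members in the joint edgeR test; with all libraries 0 passed, and this setting leaves 1 control library at day 3, assumed to vary like the other groups. The adjusted p-values were 0.0138 for Stat2, 0.00978 for Irf9, 0.0204 for Dhx58, 0.00996 for Ifit3, 0.0263 for Bst2 and 0.00646 for Ifi27. They were 0.0023 for Xaf1, 0.00809 for Psmb9, 0.00572 for Tapbp, 0.00775 for B2m, 0.000777 for H2-K1 and 0.000786 for H2-D1.

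In this setting H2-K1, H2-D1 and B2m differed by -0.31, 0.07 and -0.26 on the log2 scale at day 0 and by 0.93, 1.07 and 0.49 at day 5, and Stat2 by -0.29 and 0.56. Xaf1 went the other way, from -0.25 at day 0 to -1.31 at day 5. Irf9 differed by -0.61 at day 0, 0.55 at day 3 and -0.07 at day 5.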

How the results depend on the processing

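The numbers of members higher (9) and lower (4) in the averaged comparison moved to 14 and 10 without day 3, and the number lower to 7 with no filter on low counts. The single member lower at day 0 became 2 with DESeq2 size factors, with a filter of 50 counts, with limma on log2(RPKM + 0.1) and without the day 10 libraries, 3 with limma on log2(RPKM + 1) and with the replicate block, 5 with DESeq2 and 6 with no filter. Of the 2 lower at day 3, limma called 1 with either pseudocount. The 7 lower in the control at day 5 became 16 with DESeq2, 17 with no filter and 11 with limma on log2(RPKM + 1). In the knockdown DESeq2 called 2 higher and 1 lower at day 5, and the replicate block called 1 lower. The joint test called 5 members with DESeq2 and 5 with no filter. Added after seeing the data, day 5 against day 0 alone called 2 (beside 1.36% of all genes), and 14 (33.3%, beside 10.1%) when control day 3 replicate 2 was also left out. The cause was not tested. Shares of all genes were not counted for most of these settings, so the member counts alone do not set the members apart from other genes.

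Leaving out each library in turn gave 6 to 20 members higher and 3 to 10 lower in the averaged comparison, 0 to 4 and 0 to 13 at day 0, 1 to 15 and 0 to 8 at day 3, and 1 to 18 and 0 to 4 at day 5. It gave 0 to 1 higher and 2 to 27 lower in the control over time, 0 to 4 and 0 to 4 in the knockdown, and 0 to 26 in the joint test. The upper ends came from leaving out a control day 3 library, where more of all genes were called in each comparison too. The averaged difference changed sign for Irf7 without day 3 (-0.126), for Irf9 with limma (0.029 and 0.061), and for Psmb9 with limma on log2(RPKM + 0.1) (0.013), without day 3 (0.174) and without control day 3 replicate 2 (0.221, against -0.38 without replicate 1). None of the 3 passed with all libraries. Of the averaged values of 22 named members, 404 kept their direction and side of the threshold, 23 passed newly, 27 no longer passed and 6 changed sign. The replicate block changed no call of a member other than those given with it above. Depth limits the members under 1 RPKM, whose differences rest on few counts.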
